A study of Mus musculus with 12 samples.

Results

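These are the genes whose luminal level was highest in late pregnancy, above both the virgin and the early lactating gland. They were chosen on group means of CPM (counts of a gene per M counts of its library, scaled between libraries with TMM factors). A gene was taken when its mean in luminal cells at day 18.5 of pregnancy was at least 10 CPM and at least 3 times the luminal virgin mean and the luminal mean at day 2 of lactation. Of 27179 genes in the table, 41 met these numbers. Rspo1 was left out by name, as the rule also does with Tnfsf11 and the connexin genes, and 40 genes remained. They are 0.48% of the 8327 genes with at least 10 CPM in luminal pregnant cells. A protein-coding gene symbol was found for 39 of them, and the other is given by its Entrez identifier, 215866. They lie on 16 chromosomes.

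The count depended on the scaling. With libraries scaled by their total alone, 36 genes met the rule and 21 of them were among the 40. The 19 lost included C3, Thbs1, Pdk4, Angptl4, Mgll, Tgfb2, Pcsk6, Bcl2l1, Muc4, Calml3 and Sspo. Frat2, Cnksr3, Tsku, Cachd1, Ubald1, Ncoa7 and Gm14137 were lost as well. Milk protein genes took 16.7% and 19.5% of all counts in the luminal pregnant libraries and 47.5% and 46.4% in the lactating ones. With scaling by totals alone, the median log2 change over all genes tested was -0.54 between luminal virgin and pregnant cells, and -0.85 between pregnant and lactating cells. With TMM it was -0.04 and 0.00. With TMM 3488 genes were called higher and 3849 lower between virgin and pregnant luminal cells, and 3781 higher and 3935 lower between pregnant and lactating. By totals alone these were 1215 and 8425, and then 1013 and 9583. All levels and changes below are therefore relative to the TMM scale.

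Luminal and basal cells were sorted from mammary glands of wild-type FVB/N female mice. There were 3 stages: virgin (age not given in the sources used here), day 18.5 of pregnancy and day 2 of lactation, called pregnant and lactating below. No animal was treated. The labels give 2 mice per stage, and each cell type and stage had 2 libraries, so that 12 libraries form 6 groups of 2. Luminal and basal libraries of a stage may come from the same mice. The luminal libraries were run in 1 lane and the basal libraries in another, so lane and cell type cannot be told apart. The 12 libraries held between 20.02 M and 24.72 M counts, and libraries of a group differed by more than counting error (chi-square over degrees of freedom 9.36 to 29.2). In bulk samples, fewer cells of a type and less RNA per cell cannot be told apart.

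The mammary epithelium has an inner luminal layer, which makes milk, and an outer basal layer of contractile myoepithelial cells. In pregnancy, progesterone and prolactin drive growth of the alveoli and the first stage of secretory differentiation, in which milk proteins begin to be made. Progesterone falls around birth, the junctions between cells close and full secretion begins.

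The luminal label was checked against defining markers. Krt8, a luminal keratin, stood at 2649 and 3162 CPM in the luminal pregnant libraries and at 487 and 530 CPM in the basal ones. Krt5, the basal keratin, stood at 3.94 and 3.99 CPM in the luminal pregnant libraries and at 1768 and 2132 CPM in the basal ones. Markers of other cell types were low in luminal pregnant cells. Their summed levels were 76.0 and 53.5 CPM for 9 fibroblast genes, 25.3 and 24.0 CPM for 9 endothelial genes, and 78.7 and 75.6 CPM for 6 pericyte genes. All of these sums were higher in the luminal virgin libraries. The sum of 10 macrophage and other myeloid genes was 37.2 and 42.2 CPM, against 16.9 and 21.0 CPM in virgin and 33.7 and 32.3 CPM in lactating cells, and 23.6 and 25.8 CPM of the pregnant sum were S100a8, which luminal cells of all stages held. Csf1r stood at 1.25 and 0.887 CPM, Ptprc at 0.403 and 0.345 CPM and Adgre1 at 0.134 and 0.0986 CPM in luminal pregnant cells.

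Promoter sequences show what the members do and do not have in common upstream of their start sites. RefSeq promoters of the build GRCm38.p6 were at hand for 28 of the 40 genes, and the 250 bases before each start were searched on both strands. These genes had 36 start sites, and 19 of the 36 windows overlapped the span of their own gene, as before an internal start. The letters GGGNNTTCC, a site form of NF-kappaB, were in the promoters of 4 of 28 genes (14.3%, against 5.61% of all 27025 genes in the table). These were Ubd, Rnase1, Pdk4 and Bcl2l1. The E-box CACGTG was also in 4 of 28 (14.3% against 6.86%), namely Cnksr3, Mgll, Tgfb2 and Tnfrsf19. TTCNNNGAA, the GAS element that STAT factors bind, was in 1 of 28, Rnase1 (3.57% against 8.13%). The half-site TGTTCT of steroid receptors such as the progesterone receptor was in 5 of 28 (17.9% against 18.2%), and CCAAT in 11 of 28 (39.3% against 37.5%). TGACTCA, the AP-1 site, was in 1 of 28, Gm14137 (3.57% against 5.16%). These matches are a description of letters and were not tested.

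The promoters of Ubd and Rnase1 are given as the 250 bases before the start, 5′ to 3′ on the strand of the gene, with the searched motifs in capitals. They were picked because both hold the searched NF-kappaB form GGGNNTTCC. Ubd holds GGGATTTCC at 14 to 6 bases before its start, and Rnase1 holds the same letters and the GAS letters TTCTTAGAA at 56 to 48 bases before its start. Ubd lies at chr17:37193642-37193891 (plus strand) and Rnase1 at chr14:51146768-51147017 (minus strand).
Ubd: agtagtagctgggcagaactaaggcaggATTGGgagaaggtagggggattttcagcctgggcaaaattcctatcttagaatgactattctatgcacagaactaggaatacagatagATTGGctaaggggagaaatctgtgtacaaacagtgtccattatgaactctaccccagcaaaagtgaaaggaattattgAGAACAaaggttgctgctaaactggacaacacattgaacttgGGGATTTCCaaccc
Rnase1: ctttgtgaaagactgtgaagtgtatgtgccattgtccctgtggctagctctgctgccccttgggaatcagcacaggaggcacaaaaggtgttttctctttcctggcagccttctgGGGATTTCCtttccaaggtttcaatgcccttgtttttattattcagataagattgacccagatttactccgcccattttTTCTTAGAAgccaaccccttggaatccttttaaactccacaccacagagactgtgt

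Because luminal levels chose the genes, the luminal values that follow are a description and carry no test. The mean luminal pregnant level of the 40 ran from 10.1 CPM (Calml3) to 2416 CPM (C3), with a median of 80.4 CPM. The ratio to the higher of the other luminal means ran from 3.02 (Thbs1) to 34.6 (Calml3), with a median of 4.22. In 39 of 40 both pregnant libraries lay above all 4 virgin and lactating libraries, and in 19 of 40 every pregnant library was at least 3 times every other luminal library. A 3 times cut on the same means favours such a separation, and the share over all genes was not counted. The summed level of the 40 genes was 2267 and 2528 CPM in the virgin, 8279 and 10230 CPM in the pregnant, and 1189 and 864 CPM in the lactating libraries. The levels by library are plotted by role.

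**Figure D1:**
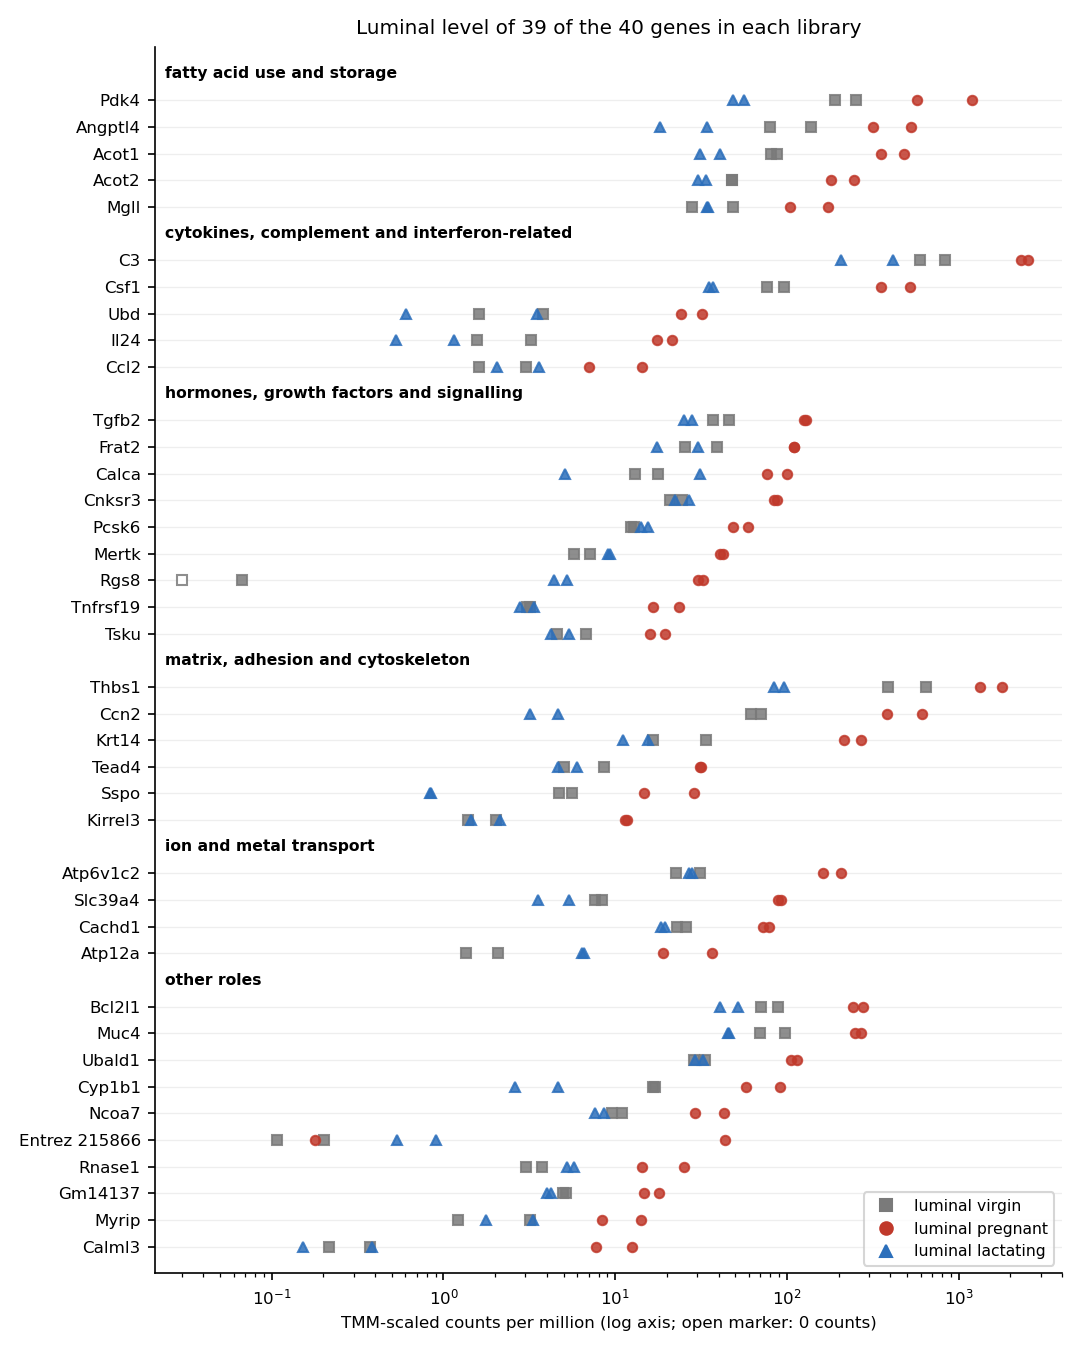
Level of 39 of the 40 genes (rows, grouped by role) in each of the 6 luminal libraries, in TMM-scaled CPM on a log axis; squares are virgin, circles pregnant and triangles lactating libraries, and an open marker is a library with 0 counts. In 38 of the 39 genes drawn both pregnant libraries are the highest, which the rule favours. For Entrez 215866 the pregnant libraries stand at 0.179 and 43.7 CPM.

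The exception was Entrez 215866, which had 886 counts in pregnant library 2 and 4 in pregnant library 1, against at most 12 in any virgin or lactating luminal library. Its place among the 40 rests on that 1 library. The pregnant libraries were over 2 times apart for 2 further genes, Pdk4 and Ccl2, and within 1.5 times of each other for 27. Pregnant library 2 was the higher one in 25 of 40. The members nearest the threshold were Cachd1 (3.09 times), Tgfb2 (3.07 times) and Thbs1 (3.02 times). Just outside it were Fam189a2 and Hmox1 (each 2.94 times) and Pard6b (2.85 times).

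The members did not fall back to the same place. In 19 of 40 both lactating libraries lay below both virgin ones, in 6 they lay above, and in 15 the stages overlapped. The rule used these levels and the share over all genes was not counted, so the split cannot be set against that of other genes. The lactating mean was under 10% of the pregnant mean for 14 genes. Ccn2 is the clearest case of a level below the virgin one. Its virgin mean was 16.9 times its lactating mean. Rgs8 lay at the other end, with 0 and 2 counts in the virgin libraries and 4.43 and 5.23 CPM in the lactating ones.

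Genes of fatty acid use formed 1 role group of 5, of which Pdk4, Angptl4 and Mgll did not meet the rule with scaling by totals alone, nor without luminal pregnant library 2. Pdk4, the kinase that switches off pyruvate dehydrogenase and so spares glucose carbon, stood at 191 and 253 CPM in virgin, 571 and 1192 CPM in pregnant, and 56.2 and 48.3 CPM in lactating luminal cells. Angptl4, a secreted inhibitor of lipoprotein lipase, stood at 80.0 and 139, 318 and 528, and 34.2 and 18.2 CPM at these stages. Both genes are known targets of the PPAR receptors, and in both the lactating libraries were the lowest. Acot1 and Acot2 encode thioesterases that release free fatty acids from coenzyme A, in the cytosol and the mitochondria. Acot1 stood at 81.0 and 87.3, 352 and 478, and 40.9 and 31.4 CPM, and Acot2 at 47.6 and 48.0, 180 and 244, and 33.7 and 30.2 CPM. The 2 genes are near-identical neighbours, 15.62 kb apart on chromosome 12 (Acot2 at chr12:83987861-83993877 and Acot1 at chr12:84009502-84017670, GRCm38.p6), and how reads that match both were counted is not given in the sources used here, so their values are uncertain. Mgll, the lipase of monoacylglycerols, stood at 28.1 and 48.4, 105 and 174, and 34.2 and 34.5 CPM, with virgin and lactating libraries overlapping.

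Genes that make milk fat are given beside them, although the choice of the 40 by a fall in lactation fixes how the groups compare. Of 24 tested genes on the milk fat list, 21 were higher and 2 lower in luminal pregnant than in virgin cells, and 22 were higher and 1 lower in lactating than in pregnant cells (edgeR quasi-likelihood test, adjusted p below 0.05). The background of that comparison was 21.8% of all genes called higher and 24.1% called lower between virgin and pregnant, and 23.7% higher and 24.6% lower between pregnant and lactating. The median log2 change of the list was 1.86 and then 2.06. Fasn, the fatty acid synthase, stood at 281 and 240 CPM in virgin, 1893 and 1716 CPM in pregnant, and 9224 and 10510 CPM in lactating cells. Lpl, the lipase that Angptl4 inhibits, stood at 8.93 and 13.0, 518 and 766, and 2947 and 3207 CPM. All 13 milk protein genes were higher in lactating than in pregnant luminal cells. No gene of either list was among the 40.

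Immune roles were held by 6 members. C3, the central complement protein, had the highest pregnant level of the 40, with 835 and 597 CPM in virgin, 2526 and 2307 CPM in pregnant, and 416 and 208 CPM in lactating libraries. Csf1, the growth factor of macrophages, stood at 95.6 and 76.2, 352 and 523, and 37.1 and 35.4 CPM. Ccl2, which attracts monocytes, was far lower, at 1.61 and 3.04, 7.03 and 14.3, and 3.59 and 2.05 CPM. The luminal peak of Csf1 and Ccl2 was set by the rule. Csf1r, the receptor of Csf1 and a macrophage marker, lay between 0.0757 and 1.25 CPM in the luminal libraries, highest in a pregnant one. Il24, a cytokine of the interleukin-10 family, stood at 1.58 and 3.24, 21.4 and 17.6, and 1.15 and 0.530 CPM. Ubd, a ubiquitin-like protein that cytokines can induce, stood at 3.8 and 1.62, 32.2 and 24.1, and 3.52 and 0.606 CPM.

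Of 20 tested genes on the inflammatory and acute phase list besides Csf1, 7 were higher and 3 lower in luminal pregnant than virgin cells, and 10 were higher and 4 lower in lactating than pregnant cells, with median log2 changes of 0.21 and 0.70. Scaled by totals alone these medians were -0.30 and -0.15, and the counts were 5 higher and 6 lower, then 7 higher and 6 lower. Saa1, an acute phase protein, stood at 7.99 and 10.02 CPM in virgin, 87.6 and 158 CPM in pregnant, and 887 and 869 CPM in lactating cells. On the interferon list of 19 tested genes, 2 were higher and 10 lower in pregnant than virgin cells, and 9 were higher and 1 lower in lactating than pregnant cells. The second of these depends on the scaling, with 3 higher and 4 lower by totals alone.

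Signals are carried or relayed by 9 members. Calca, which encodes calcitonin and, by alternative splicing, calcitonin gene-related peptide, stood at 17.8 and 13.1 CPM in virgin, 100.1 and 76.6 CPM in pregnant, and 31.2 and 5.07 CPM in lactating luminal cells. The lactating libraries were far apart for this gene. Without lactating library 2 it no longer met the rule. Tgfb2, a growth factor that restrains epithelial growth, stood at 46.1 and 37.1, 125 and 130, and 25.2 and 28.1 CPM. Pcsk6, a protease that cuts growth factor precursors into their active form, stood at 12.8 and 12.4, 48.5 and 59.3, and 15.4 and 14.1 CPM.

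Among the receptors, Mertk, which recognises dying cells for engulfment, stood at 5.77 and 7.16 CPM in virgin, 42.3 and 40.7 CPM in pregnant, and 9.09 and 9.32 CPM in lactating cells. Tnfrsf19, a receptor of the tumour necrosis factor family also called TROY, stood at 3.05 and 3.21, 23.6 and 16.6, and 3.36 and 2.80 CPM. Both receptors were low, with pregnant levels well clear of the other stages. Rgs8, which shortens signals of G proteins, had 680 and 660 counts in the pregnant libraries, against the 0 and 2 in the virgin ones. Frat2, an inhibitor of the kinase GSK3, Cnksr3, a scaffold of kinase signalling, and Tsku, a secreted inhibitor of several growth factors, had pregnant means of 109.9, 85.6 and 17.8 CPM, between 3.14 and 3.48 times the higher other mean.

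Calca was the only member on the progesterone and oestrogen response list. Of the 14 other tested genes of that list, 1 was higher and 11 were lower in luminal pregnant than virgin cells, with a median log2 change of -2.73 (-3.24 scaled by totals alone). Pgr, the progesterone receptor, stood at 72.9 and 112 CPM in virgin and 6.81 and 6.11 CPM in pregnant luminal cells. Foxa1, a pioneer factor for the oestrogen receptor, stood at 121 and 124 and then 11.1 and 12.5 CPM, and Areg, a growth factor of hormone-sensing cells, at 510 and 565 and then 14.6 and 7.2 CPM. Calca had its luminal peak at the stage where these 3 genes stood far below their virgin level.

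Matrix, adhesion and cytoskeleton genes made up 6 of the 40. Ccn2 (chr10:24595442-24598683), the secreted connective tissue growth factor, and Thbs1, the matrix protein thrombospondin, are known targets of YAP and its DNA-binding TEAD partners. Ccn2 stood at 62.2 and 70.2 CPM in virgin, 385 and 610 CPM in pregnant, and 3.21 and 4.62 CPM in lactating luminal cells. Thbs1 stood at 387 and 645, 1336 and 1778, and 96.5 and 84.2 CPM. In both, pregnant libraries were highest and lactating libraries lowest, with no overlap between stages. Tead4, itself a TEAD gene, stood at 5.02 and 8.61, 31.0 and 31.4, and 4.66 and 5.98 CPM. Of the exon length of Ccn2, 23.2% overlaps the antisense gene Gm15270, and without a stated strand setting reads of the pair cannot be told apart.

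Krt14 is a defining keratin of the basal layer, where it pairs with Krt5. It stood at 16.7 and 33.7 CPM in virgin, 215.5 and 270.6 CPM in pregnant, and 15.4 and 11.1 CPM in lactating luminal cells. In basal cells it stood between 3657 and 5448 CPM at all stages. The luminal mean was 5.04% of the basal mean in pregnancy, 0.624% in virgin and 0.297% in lactating mice. Its partner Krt5 stood at 3.76 and 3.78, 3.94 and 3.99, and 7.79 and 6.67 CPM in luminal cells, and its luminal mean in pregnancy was 0.203% of the basal one. Acta2, Myh11 and Cnn1, genes of the contractile apparatus of myoepithelial cells, stood at 0.231%, 0.24% and 0.249%. The ratio of Krt14 to Krt5 was 54.7 and 67.8 in the luminal pregnant libraries and between 1.25 and 2.66 in the 6 basal libraries. It was 4.44 and 8.9 in the luminal virgin libraries, above the basal range, and 1.98 and 1.67 in the luminal lactating ones, within it. When basal counts were subtracted from the luminal libraries in the proportion given by Krt5, Acta2, Myh11 and Cnn1 (0.144% to 0.317%), all 40 genes still met the rule, Krt14 included. This alternative was chosen after seeing the data. These 4 genes set that proportion and do not stand for all basal genes. The luminal mean of Oxtr, the oxytocin receptor, was 9.62% of the basal one in pregnancy, 4.65% in virgin and 1.15% in lactating mice. Krt17, a keratin of high similarity to Krt14, stood at 1.32%, 0.58% and 0.316% and, as a luminal level, at 11.1 and 15.4, 13.5 and 18.7, and 6.11 and 5.76 CPM. Of 11 genes on the basal identity list besides Krt14, 6 were higher and 3 lower in luminal pregnant than virgin cells, with a median log2 change of 0.97 (0.47 scaled by totals alone). Acta2 was among them, at 8.10 and 15.1 CPM in virgin and 36.8 and 36.5 CPM in pregnant luminal cells, and it also rose in basal cells, by 1.90 ± 0.24 on the log2 scale (edgeR adjusted p = 0.000112).

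**Figure D2:**
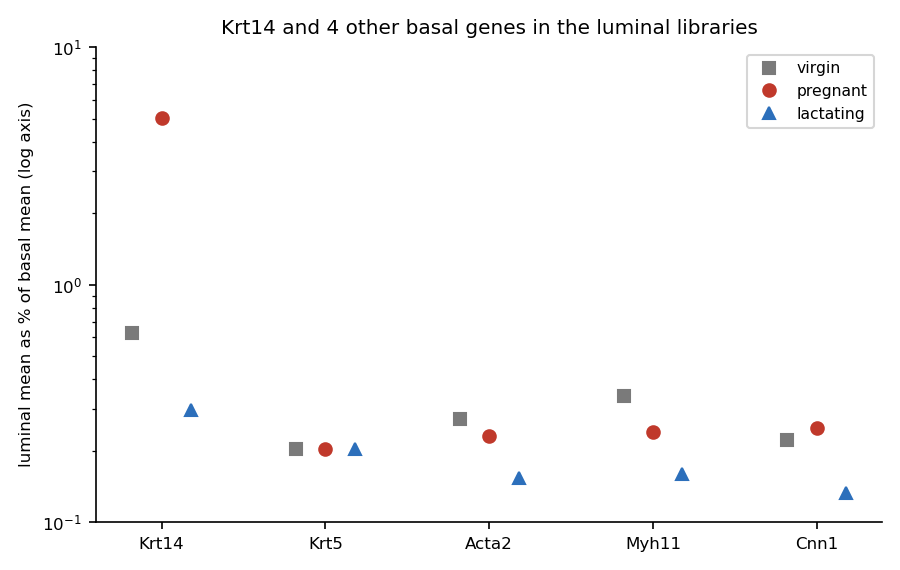
Luminal mean as a percentage of the basal mean of the same stage (log axis) for Krt14 and for 4 other basal genes, with squares for virgin, circles for pregnant and triangles for lactating mice (2 libraries per mean). Krt14 stands at 5.04% in pregnancy, while the 4 genes drawn beside it, those that set the carry-over proportion, lie between 0.133% and 0.339% at every stage.

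Kirrel3, an adhesion protein of the immunoglobulin family, and Sspo, a large secreted protein, were low members, with pregnant means of 11.5 and 21.6 CPM. Sspo had pregnant libraries at 28.6 and 14.6 CPM and lactating libraries at 0.841 and 0.833 CPM.

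Ion and metal transport was the role of 4 members. Slc39a4, the zinc importer ZIP4, stood at 8.39 and 7.59 CPM in virgin, 88.8 and 92.2 CPM in pregnant, and 5.35 and 3.56 CPM in lactating cells. Its pregnant libraries were within 1.04 times of each other and 11.3 times the virgin mean. Atp6v1c2, a subunit of the proton pump of the vacuolar type, stood at 22.6 and 31.1, 161.5 and 207.6, and 28.1 and 26.8 CPM. Atp12a, a proton-potassium pump outside the stomach, stood at 2.08 and 1.35, 18.9 and 36.4, and 6.57 and 6.44 CPM, with both lactating libraries above both virgin ones. Cachd1, related to auxiliary subunits of calcium channels, had a pregnant mean of 75.3 CPM. None of these 4 is on the calcium and ion transport list, which holds Calca. Of its 15 other tested genes, 7 were higher and 4 lower in pregnant than virgin cells, and 11 were higher and 2 lower in lactating than pregnant cells (8 and 3 scaled by totals alone).

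The other 10 members have roles apart from these groups. Bcl2l1, whose main product BCL-XL blocks apoptosis, stood at 70.6 and 89.0 CPM in virgin, 243.5 and 275.7 CPM in pregnant, and 51.7 and 40.9 CPM in lactating luminal cells. Muc4, a membrane mucin, stood at 69.4 and 97.9, 250.2 and 269, and 46.2 and 45.3 CPM. Cyp1b1, an oxidase of oestrogens and foreign compounds, stood at 16.6 and 17.2, 57.5 and 91.3, and 2.60 and 4.62 CPM. In all 3 the lactating libraries lay below the virgin ones. Calml3, a calmodulin-like protein of epithelia, had the largest ratio but a low level, with 0.215 and 0.371 CPM in virgin, 12.6 and 7.69 CPM in pregnant, and 0.382 and 0.152 CPM in lactating cells. Its pregnant mean of 10.1 CPM was just over the minimum of the rule. Calml3 did not meet the rule with DESeq2 size factors, nor with scaling by totals alone. Rnase1, a secreted ribonuclease, Ubald1, Ncoa7, a nuclear receptor coactivator, Myrip, which links Rab proteins to myosin, and Gm14137 had pregnant means between 11.3 and 110.1 CPM.

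Levels between genes were compared per kilobase of the deposited gene length. On this scale C3 (471 CPM per kb), Thbs1 (268), Acot1 (266), Pdk4 (255), Angptl4 (222) and Ccn2 (207) were the highest in luminal pregnant cells. Sspo was the lowest at 1.39 CPM per kb.

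**Figure D3:**
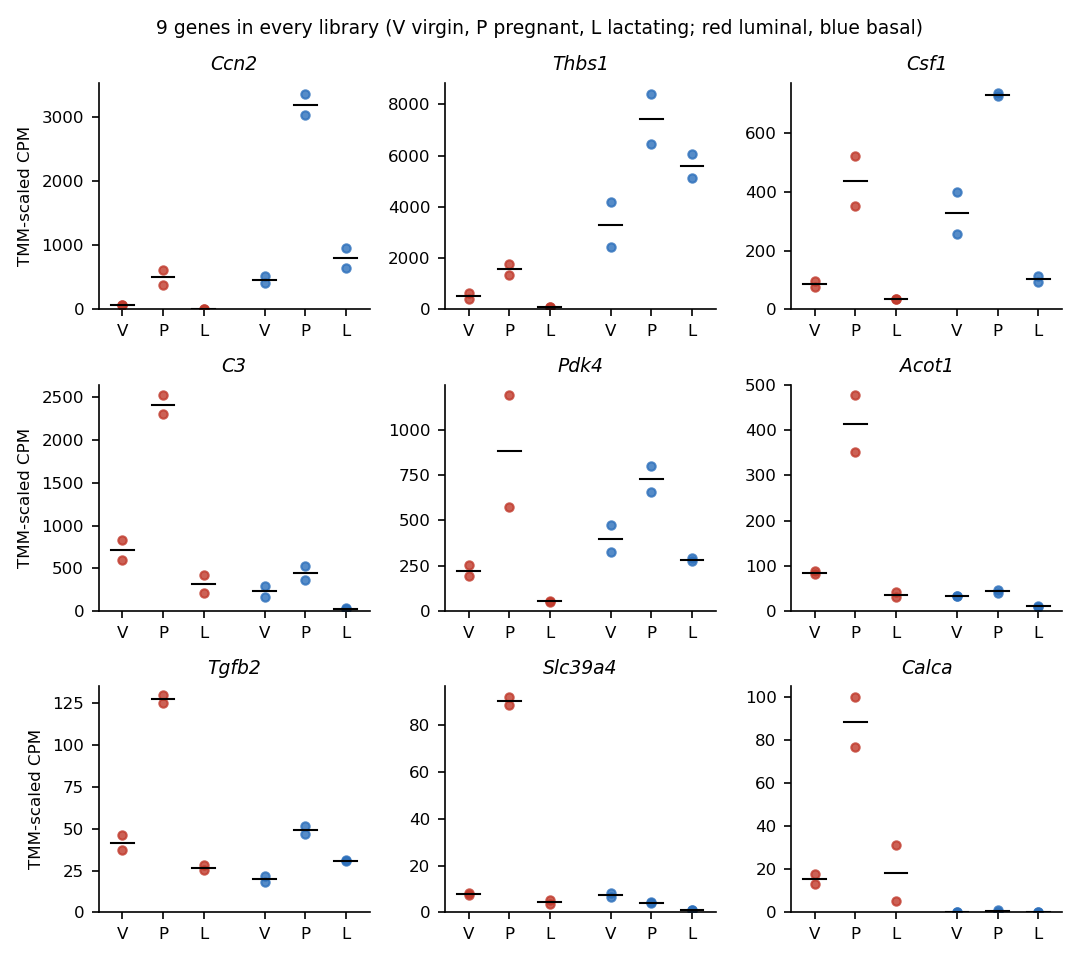
Levels of 9 of the genes in all 12 libraries, in TMM-scaled CPM on linear axes that start at 0, with luminal libraries in red on the left and basal libraries in blue on the right of each panel, and V, P and L for virgin, pregnant and lactating; points are libraries and bars are means of 2. Ccn2 is highest in basal pregnant cells (3020 and 3357 CPM), while Slc39a4 and Calca stand at or below 8.14 CPM in every basal library.

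The same genes were then read in basal cells, whose levels the rule did not use. In pregnancy both basal libraries lay below both luminal ones for 26 of 40 genes, above them for 9, and overlapped for 5. The rule asked for a high luminal pregnant level, which favours basal below luminal in this count. The share over all genes was not counted, so these numbers are a description only. At least 2 times higher in basal cells were Krt14 (19.9 times), Ccl2 (19.1 times), Kirrel3 (6.94 times), Ccn2 (6.41 times), Thbs1 (4.77 times) and Cyp1b1 (2.09 times). Matrix, adhesion and cytoskeleton genes made up 4 of the 9. At the other end, the basal mean was under 5% of the luminal mean for 8 genes, among them Calca (0.787%), Entrez 215866 (2.54%), Muc4 (2.82%), Rgs8 (3.51%), Ubd (4.40%), Slc39a4 (4.67%) and Rnase1 (4.94%). Milk protein transcripts measured in the same basal libraries stood close to these shares. The median over 13 milk protein genes of the basal level as a percentage of the luminal one was 3.98% and 3.43% in the virgin libraries, then 3.04% and 2.63% at the pregnant stage and 0.618% and 0.61% at the lactating stage. Csn2, the beta-casein gene, stood at 2.48% in pregnancy.

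**Figure D4:**
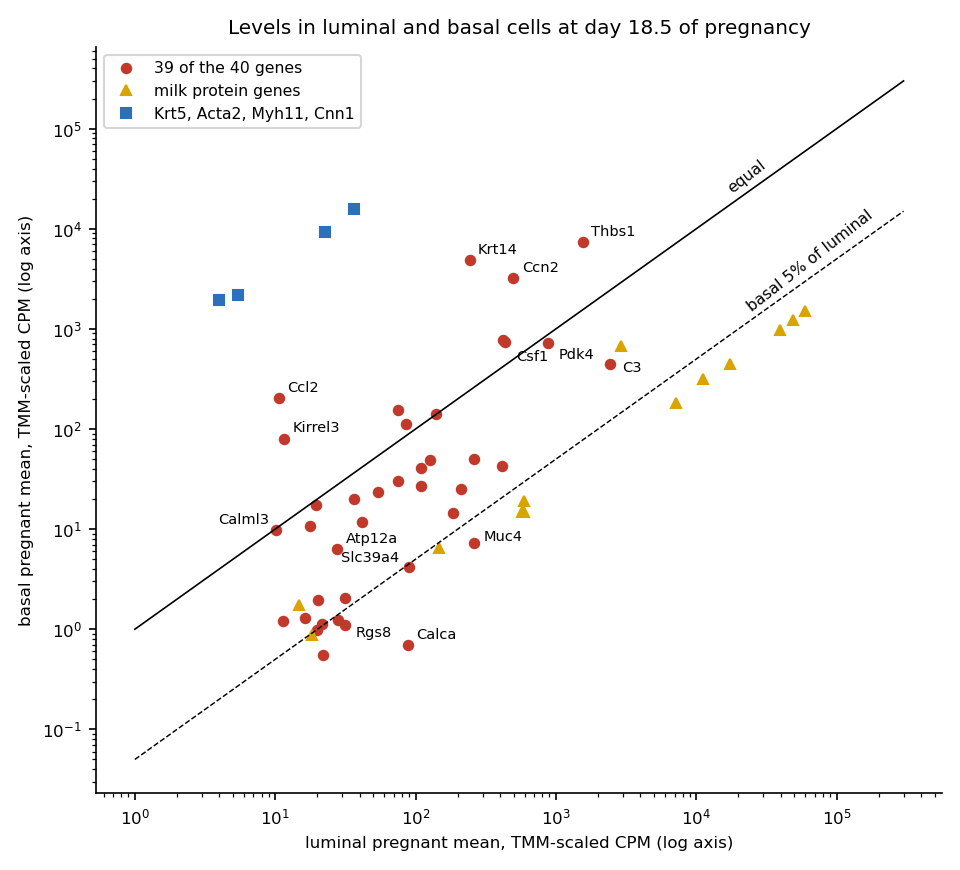
Mean level in basal cells against mean level in luminal cells at day 18.5 of pregnancy, in TMM-scaled CPM on log axes, for 39 of the 40 genes (circles), 13 milk protein genes (triangles) and 4 basal genes (squares); the solid line marks equal levels and the dashed line a basal level of 5% of the luminal one. Genes such as Muc4 and Rgs8 lie among the milk protein genes under the dashed line, while Krt14, Ccl2, Kirrel3, Ccn2 and Thbs1 lie above the line of equal levels.

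Between virgin and pregnant basal cells, 18 of the 40 genes rose, 4 fell and 18 were not called (edgeR quasi-likelihood test over 15969 genes, Benjamini-Hochberg adjusted p below 0.05). Over all genes tested 15.6% were called higher and 14.4% lower, against 45% and 10% of the 40. Scaled by totals alone the split over all genes was 1647 higher and 3485 lower, in place of 2491 and 2304, and 15 of the 40 rose and 4 fell. The median log2 change of the 40 was 0.79, against 0.00 over all genes tested, and 33 of 40 had a change above 0. Without basal virgin library 1, 10 genes rose. With luminal counts subtracted from the basal libraries in the proportion given by the milk protein genes, 12 of the 18 remained, and Rgs8, Atp6v1c2, Atp12a, Muc4 and C3 were among those lost. Over all 15991 genes tested with this subtraction, 2448 were called higher and 2246 lower. After the subtraction C3 and Atp12a rose by 0.87 and 1.20 on the log2 scale, beside 0.95 and 1.36 before it. Their edgeR adjusted p was 0.077 and 0.0742. For Muc4 the value was 4.26, beside 2.23 before it (edgeR adjusted p = 0.141). The subtraction sets counts below 0 to 0. The pregnant basal mean of Muc4 was 2.82% of the luminal one, near the subtracted 3.04% and 2.63%. Little of it was left, so 4.26 gives no size of its rise.

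The largest called basal rises were those of Ccn2, Ccl2, Muc4, Rgs8 and Kirrel3. Ccn2 stood at 406 and 517 CPM in virgin, 3020 and 3357 CPM in pregnant, and 638 and 949 CPM in lactating basal cells, with a log2 rise of 2.79 ± 0.25 (SE; edgeR adjusted p = 8.47e-06). Ccl2 stood at 41.7 and 41.9, 207 and 200, and 68.7 and 52.9 CPM, with a log2 rise of 2.28 ± 0.26 (edgeR adjusted p = 5.95e-05). Kirrel3 stood at 22.8 and 31.6, 77.1 and 83.0, and 61.1 and 53.4 CPM (log2 rise 1.56 ± 0.16, edgeR adjusted p = 2.90e-05). In Ccn2, Ccl2 and Kirrel3 the pregnant libraries were the highest of the basal libraries and did not overlap with the other stages. The sum of 9 fibroblast markers in basal cells went from 233 and 315 CPM in virgin to 679 and 867 CPM in pregnant and 500 and 435 CPM in lactating libraries. Dcn alone gave 54.2 and 89.0 CPM of the virgin and 434 and 580 CPM of the pregnant sum. Of the 9 genes 2 were called higher and 2 lower, with a median log2 change of 0.28, and their part in the result was not tested.

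Growth factors rose as well. Tgfb2 stood at 18.04 and 21.9 CPM in virgin, 46.6 and 51.6 CPM in pregnant, and 31.3 and 30.6 CPM in lactating basal cells (log2 rise 1.30 ± 0.13, edgeR adjusted p = 2.26e-05). Csf1 stood at 258 and 400, 727 and 736, and 114 and 92.2 CPM (log2 rise 1.15 ± 0.22, edgeR adjusted p = 0.00171). Csf1 was thus higher in basal than in luminal cells in pregnancy, by 1.67 times. Thbs1 stood at 2425 and 4171, 6433 and 8412, and 6076 and 5116 CPM (log2 rise 1.17 ± 0.28, edgeR adjusted p = 0.00765). The call for Thbs1 was lost without basal virgin library 1 (edgeR adjusted p = 0.0703) and without basal pregnant library 2 (edgeR adjusted p = 0.061).

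Among the fatty acid genes, Mgll and Pdk4 rose in basal cells, with log2 changes of 1.05 ± 0.25 and 0.87 ± 0.28 (edgeR adjusted p = 0.0071 and 0.033). Angptl4, Acot1 and Acot2 had changes of 0.79, 0.39 and 0.47 and were not called. The call for Pdk4 was lost without basal virgin library 1 or either basal pregnant library, and that for Mgll without basal virgin library 1 or basal pregnant library 2. Bcl2l1 rose from 32.2 and 26.2 to 54.2 and 46.0 CPM (log2 rise 0.78 ± 0.16, edgeR adjusted p = 0.00266). Ubald1, Tsku and Cnksr3 rose by 0.70, 0.91 and 0.47 on the log2 scale. The call for Tsku was lost with scaling by totals alone, without basal virgin library 2 and without basal pregnant library 1, and that for Cnksr3 with scaling by totals alone, without basal virgin library 1 and without basal pregnant library 2.

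Of the genes whose call was lost, Muc4 had basal levels of 1.46 and 1.67 CPM before pregnancy, 8.08 and 6.55 CPM at day 18.5 and 0.0448 and 0.046 CPM in lactation, with a log2 rise of 2.23 ± 0.21 (edgeR adjusted p = 1.43e-05). Rgs8 stood at 1.55 and 0.659 CPM in pregnancy (log2 rise 2.12 ± 0.50, edgeR adjusted p = 0.00663). Their pregnant basal levels were 2.82% and 3.51% of the luminal ones, beside 3.04% and 2.63% for the milk protein genes. Atp6v1c2, C3 and Atp12a had higher shares, at 7.80%, 18.5% and 23.0%. The calls for Rgs8, Atp6v1c2, C3 and Atp12a were each also lost when 1 of several basal libraries was left out. After the subtraction the log2 rises of Rgs8 and Atp6v1c2 were 0.26 and 0.47, beside 2.12 and 0.93 before it.

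In basal cells 4 genes fell while their luminal level was at its peak. Myrip stood at 4.55 and 6.70 CPM in virgin and 1.66 and 0.741 CPM in pregnant basal cells, a log2 change of -2.20 ± 0.54 (edgeR adjusted p = 0.00843). Tnfrsf19 stood at 5.25 and 6.81 and then 3.14 and 0.783 CPM (-1.60 ± 0.40, edgeR adjusted p = 0.01). Pcsk6 stood at 45.3 and 47.1 and then 30.6 and 16.3 CPM (-0.98 ± 0.21, edgeR adjusted p = 0.00418). Slc39a4 stood at 6.57 and 8.14 and then 4.5 and 3.95 CPM (-0.79 ± 0.17, edgeR adjusted p = 0.00436). In virgin mice Slc39a4 was at a like level in both cell types, 7.99 CPM in luminal and 7.35 CPM in basal cells, and in pregnancy it was 21.4 times higher in luminal cells. The call for Tnfrsf19 was lost without basal virgin library 2 (edgeR adjusted p = 0.0521) and that for Myrip without basal pregnant library 2 (edgeR adjusted p = 0.0788).

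**Figure D5:**
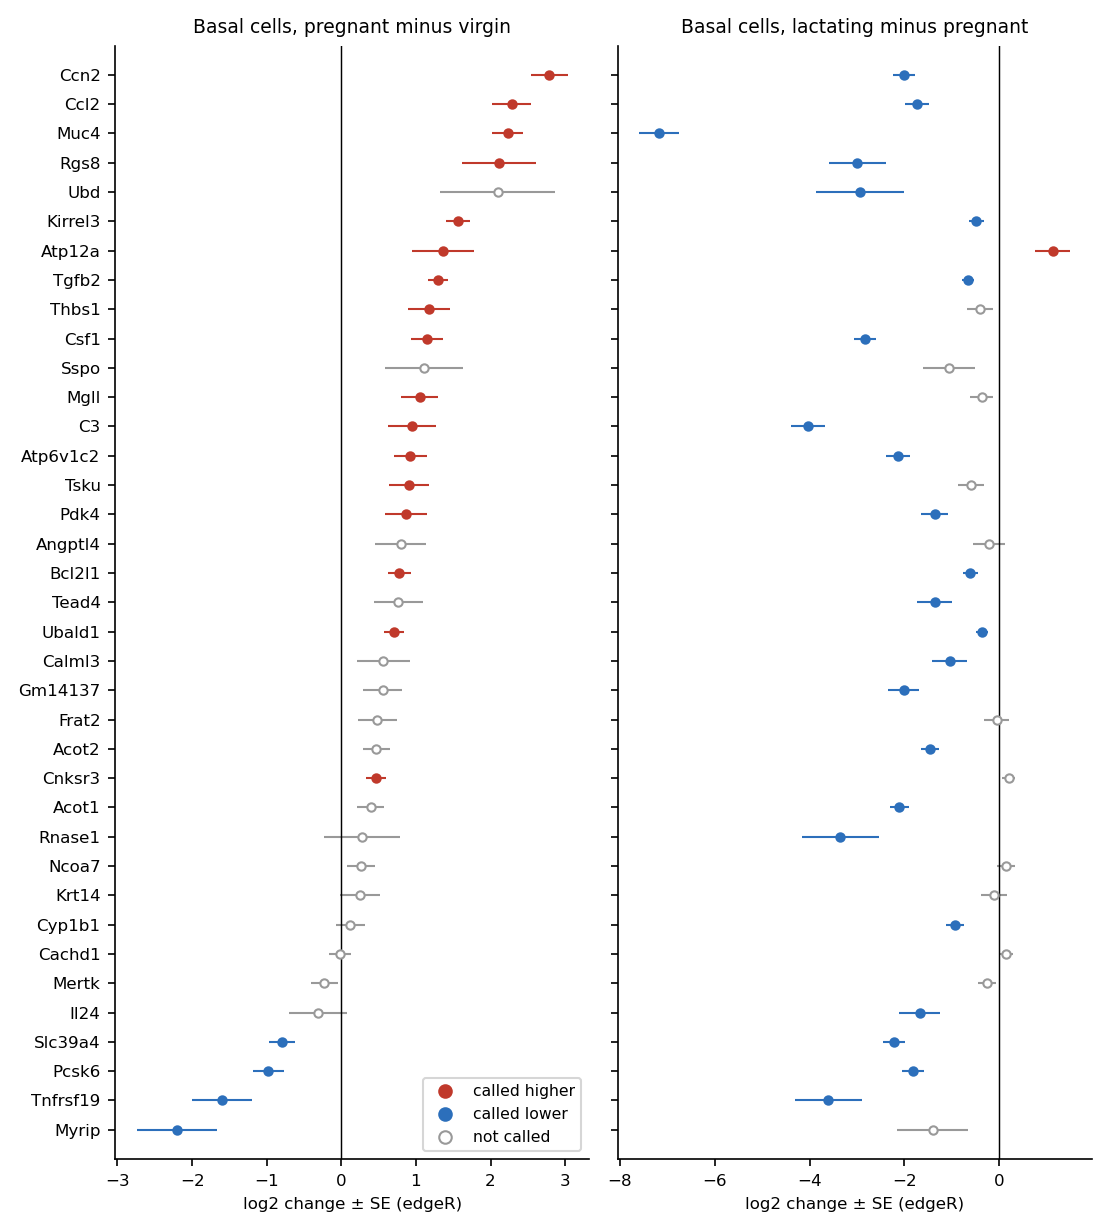
Log2 change in basal cells from virgin to pregnant (left) and from pregnant to lactating (right) for 37 of the 40 genes, with bars for the SE of the edgeR fit; filled red points were called higher, filled blue points lower and open points not called. Of the genes drawn, 17 are called higher and 4 lower on the left, and 1 higher and 24 lower on the right; Calca and Entrez 215866, not called in either, are not drawn because of their wide errors.

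Between pregnant and lactating basal cells, 25 of the 40 genes fell, 1 rose and 14 were not called. Over all genes tested 17.4% were called lower and 15.7% higher, against 62.5% and 2.5% of the 40, and the median log2 change of the 40 was -1.38 against 0.01. Both basal comparisons share the pregnant libraries, so a rise in the first and a fall in the second are not independent of each other. With luminal counts subtracted in the proportion given by the milk protein genes, 16 of the 25 remained lower. Over all 15991 genes tested with this subtraction, 2466 were called lower and 2456 higher. Among those lost were Rgs8, Calml3, Rnase1, Ubald1, Muc4, Ubd, Bcl2l1 and Tead4. The log2 changes of Calml3 and Rnase1 after the subtraction were -1.04 and -3.06, beside -1.05 and -3.35 before it. For Muc4 the value was -4.26, beside -7.17 before it. Since little of its pregnant basal level was left, -4.26 gives no size of its fall. The calls for Calml3, Rnase1, Ubald1, Ubd, Bcl2l1 and Tead4 were also lost when single basal libraries were left out.

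All 6 immune members fell. Other immune lists differed in basal cells, as the inflammatory and myeloid ones fell and the interferon list did not. Of 19 tested interferon genes 6 were higher and 1 lower between pregnant and lactating basal cells, with a median log2 change of 0.36. Of the 20 tested genes on the inflammatory and acute phase list besides Csf1, 10 were called higher and 2 lower between virgin and pregnant basal cells, and 0 higher and 11 lower between pregnant and lactating ones, with median log2 changes of 0.97 and -0.89. Of 7 tested myeloid markers 5 were lower and 1 higher between pregnant and lactating basal cells, with a median log2 change of -2.31. Csf1r stood at 2.77 and 2.06 CPM in pregnant and 0.269 and 0 CPM in lactating basal libraries (-4.10 ± 0.81, edgeR adjusted p = 0.00251), and the part of such cells in the fall of the members was not tested. C3 stood at 529 and 365 CPM in pregnant and 30.3 and 24.1 CPM in lactating basal cells, a log2 change of -4.04 ± 0.36 (edgeR adjusted p = 2.00e-05). Csf1 changed by -2.83 ± 0.23 (edgeR adjusted p = 1.10e-05) and Ccl2 by -1.74 ± 0.26 (edgeR adjusted p = 0.000404). Il24, which had not been called between virgin and pregnant basal cells, stood at 17.8 and 17.3 and then 6.63 and 4.32 CPM (-1.68 ± 0.43, edgeR adjusted p = 0.0105). Without basal lactating library 2 the adjusted p for Il24 was 0.105. Ubd changed by -2.94, a call lost after the subtraction.

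Ccn2 changed by -2.01 ± 0.24 (edgeR adjusted p = 0.000108) and stood at 638 and 949 CPM in lactating basal cells, above its virgin level of 406 and 517 CPM. In luminal cells its lactating level was below the virgin one. Thbs1 changed by -0.41 ± 0.28 in basal cells and was not called (edgeR adjusted p = 0.282). In luminal cells its pregnant mean was 17.2 times its lactating mean. Krt14 was not called in either basal comparison, with log2 changes of 0.26 ± 0.27 and -0.11 ± 0.27.

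Several genes that fell in lactation had not been called between virgin and pregnant basal cells. Acot1 changed by -2.11 ± 0.20 and Acot2 by -1.47 ± 0.19 (edgeR adjusted p = 2.29e-05 and 0.000189). Cyp1b1 stood at 155.1 and 156.5 and then 72.4 and 90.1 CPM (-0.94 ± 0.19, edgeR adjusted p = 0.00315). Slc39a4, Pcsk6 and Tnfrsf19 fell for a second time, by 2.22, 1.81 and 3.60 on the log2 scale. Muc4 had 378 counts in the 2 pregnant and 2 counts in the 2 lactating basal libraries, a ratio of 162 with an exact 95% interval of 44.6 to 1343 that covers counting error only. Calca had 31 and 6 counts in the pregnant and 0 in the lactating basal libraries. The exact 95% interval of its ratio started at 8.18 and covers counting error only. Its pregnant basal mean was 0.787% of the luminal one, beside 3.04% and 2.63% for the milk protein genes. Calca was not called (edgeR adjusted p = 0.125).

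Atp12a was the single member that rose between pregnant and lactating basal cells. It stood at 2.40 and 2.50 CPM in virgin, 3.51 and 9.19 CPM in pregnant, and 12.5 and 15.03 CPM in lactating basal cells, with log2 changes of 1.36 ± 0.42 and 1.13 ± 0.37 (edgeR adjusted p = 0.0267 and 0.0358). The pregnant libraries were 1 near the virgin level and 1 between the other stages. The second call was lost without basal pregnant library 1 (edgeR adjusted p = 0.262) and without either lactating library. Of the 40 genes, 9 were called in neither basal comparison: Angptl4, Cachd1, Calca, Entrez 215866, Frat2, Krt14, Mertk, Ncoa7 and Sspo.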

How the data were processed

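RNA was measured by sequencing in 12 libraries of sorted luminal and basal mammary cells. The deposited table holds the authors' raw read counts per Entrez gene, with no normalisation, for 27179 genes. The submitters' processing notes list GRCm38, mm10, featureCounts, Subread 1.4.4 and CASAVA 1.8.2, with no role or order. The strand setting, the treatment of multiply mapped reads and the annotation version were not given in the sources used here. In the deposited single-library files 0 counts differed from the table. Symbols and coordinates came from RefSeq (GRCm38.p6), with 25275 identifiers matched, and exon overlaps from GENCODE models.

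TMM factors came from the 15969 genes that passed filterByExpr (minimum count 10) and scaled the whole table. Comparisons used edgeR 4.0.16 in R 4.3.3, with its quasi-likelihood test, 6 group means over all 12 libraries and Benjamini-Hochberg adjustment over all genes tested, called at 0.05. The test was checked on simulated data. An SE is the absolute log2 change over the square root of F. Luminal contrasts were fitted over all genes tested, and their calls are given for counts over all genes and for listed genes outside the 40, never for the 40. The members and the gene lists were chosen with earlier results of these data known. Named were the 15 members highest per kb, the 15 with the largest ratio, members on a pathway list, the 8 largest called changes of each basal comparison and 3 genes on either side of the threshold; the other members were named after their values were seen. Of the 40, 1 is counted but its own values are not reported here. Role groups were also set after the values were seen. Alternatives were other scalings, thresholds and filters, DESeq2 1.42.0, each library left out, the replicate number as a block and luminal carry-over subtracted from basal counts. Basal carry-over subtracted from luminal counts was added after seeing the data. With 2 mice per stage, p-values rest on the spread between these samples. Exact intervals describe counting error alone, because they pool the 2 libraries of a group and leave out the spread between them. Amplified reads carry no molecular identifiers, so even the counting error may be larger than given.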

Additional observations from a re-analysis of the deposited data

Results flagged for a closer look

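In 5 cases every basal library of one stage moved against the luminal direction that defined the genes. Between virgin and pregnant mice the basal log2 change was -2.204 for Myrip, -1.595 for Tnfrsf19, -0.977 for Pcsk6 and -0.794 for Slc39a4, while the luminal pregnant means were 5.10, 6.42, 4.27 and 11.3 times the virgin ones. Between pregnant and lactating mice Atp12a changed by 1.127 in basal cells, while its luminal pregnant mean was 4.25 times the lactating one. The difference between the cell types was not tested, because the luminal direction was set by the choice of the genes. With luminal counts subtracted from the basal libraries, all 4 of the first group were still called lower and Atp12a was still called higher.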

How the results depend on the processing

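The rule gave 40 genes. With library size as the only scaling it gave 36, of which 21 were among the 40. It gave 122 at 2 times, 21 at 4 times, 19 when every library had to pass, 56 and 32 with a minimum of 5 and 20 CPM, 39 with DESeq2 size factors, and 30 to 45 with a library left out. Without luminal pregnant library 2, 28 of the 40 remained. There the log2 ratio of the luminal pregnant to the lactating level of Entrez 215866 was -2.021, the lowest of a range that reached 5.907 without library 1. In basal cells, with a library left out, 10 to 20 members rose and 3 to 5 fell from virgin to pregnant, and 0 to 1 rose and 19 to 25 fell from pregnant to lactating. The single rise was lost without basal pregnant library 1 or either basal lactating library. With luminal carry-over subtracted, 12 rose and 4 fell in the first comparison, and 1 rose and 16 fell in the second. Over all 15991 genes tested there, 2448 rose and 2246 fell, then 2456 rose and 2466 fell. For these changes the cause was not tested. Basal carry-over subtracted from luminal counts, chosen after seeing the data, left 40 genes by the rule and 18, 4, 1 and 25 basal calls. DESeq2 gave 17 rises and 4 falls, then 1 rise and 25 falls, and the unfiltered fit 21 and 4, then 1 and 25. Over all genes DESeq2 gave 2469 rises and 2029 falls, then 2331 and 2618. The unfiltered fit gave 2471 and 2389 over all genes, then 2561 and 2672. For listed genes outside the 40, scaling by totals alone gave 59 higher and 123 lower in luminal pregnant than virgin cells, in place of 95 and 76, and 69 higher and 106 lower in lactating than pregnant cells, in place of 128 and 56. Under it the median gene of the whole table stood at a log2 change of -0.543 and then -0.851. With a library left out these 4 counts ranged over 80 to 96, 67 to 81, 113 to 129 and 41 to 56.

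Stages share only a replicate number, since their mice differ, and deviations of same-numbered basal libraries correlated at 0.113, -0.166 and -0.027 across genes. Within a stage, luminal and basal libraries of the same number correlated at 0.198 (virgin), 0.262 (pregnant) and 0.098 (lactating). With the replicate block, 19 members rose and 4 fell in the first basal comparison, and 1 rose and 27 fell in the second. Over all genes tested the block gave 2547 rises and 2396 falls, then 2569 and 2825. The 46 called changes of single members that are reported here kept their call under the replicate block. Depth limits the basal values of Calca, Entrez 215866, Muc4 and Rnase1 and the luminal virgin value of Rgs8, where a group held 0 to 4 counts.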
